A study of Mus musculus with 6 samples.

Results

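Genes of the disease-associated microglial state were followed in the substantia nigra (SN) of MitoPark mice, a mouse model of Parkinson's disease. The genes are Trem2, Tyrobp, Clec7a, Axl, Itgax, Apoe, Lpl, Cst7, Cd68 and Spp1. They were chosen by gene symbol, and all 10 were found among the 24054 genes of the deposited table. MitoParks lack Tfam, the gene of mitochondrial transcription factor A, in the neurons where the dopamine transporter gene is active. By the methods of the study they carry Cre at 1 copy of the transporter gene and floxed Tfam on both copies, while control mice carry Tfam floxed on a single copy and no Cre. The labels give C57BL/6 for the controls and transgenic mice of that strain for the PD mice, with no treatment in either group. Polyadenylated RNA came from 3 MitoParks and 3 littermate controls of 16 to 17 weeks. The label gives brain tissue and the methods give the dissected SN. The Cre driver is a gene of dopamine neurons, so the deletion was not directed at microglia.

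Microglia are the resident macrophages of the brain. When they meet dying cells, myelin debris or amyloid, a part of them lowers its resting genes and takes up a disease-associated program. The receptor TREM2 binds lipids and apolipoproteins, and signals through the adaptor TYROBP, also named DAP12. The later step of the program, with Itgax, Clec7a, Cst7, Lpl, Axl and Spp1, depends on TREM2 in mice. Several of the genes are also used by other brain cells, since astrocytes express Apoe and Axl, and some neurons express Lpl and Spp1.

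Depth and composition set the frame for these genes. Each mouse had between 8140777 and 10528602 expected counts, and 3 counts correspond to between 0.285 and 0.366 CPM, that is, counts scaled to the size of each library with TMM factors. Tfam was at 40.3, 44.4 and 45.5 CPM in the control mice and at 32.7, 33.1 and 33.2 CPM in the MitoParks. Its log2 fold change was -0.40 (SE 0.11, unadjusted p = 0.00565 by the edgeR QL test, adjusted p = 0.999), with no overlap. Markers of neurons and of myelin differed within groups. The summed level of 8 dopamine neuron markers was 1409.7 CPM in littermate control 3, against 432.7 and 514.6 CPM in the other controls, and it was 293.0 CPM in MitoPark 1, against 527.8 and 522.3 CPM in the other MitoParks. Littermate control 3 also had the highest sum of 7 oligodendrocyte markers, at 18483.9 CPM, where the other mice had 6996.6 to 15630.5 CPM.

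Of the 10 genes, 7 had a mean above 1 CPM in at least 1 group and entered the test over 14568 genes. Clec7a, Itgax and Cst7 stayed below it in both groups. All 7 tested genes had a positive log2 fold change in MitoParks, with a median of 0.20, where the median of all tested genes was -0.005 and 48.6% of them were positive. None of the 7 passed the study's cutoffs (p under 0.05 without adjustment, fold change over 1.5) in the quasi-likelihood (QL) test of edgeR. Over all tested genes 0.577% passed them, and 0.378% passed them as higher in MitoParks. One gene, Cd68, had an unadjusted p below 0.05, as did 1.11% of all tested genes. No gene of the 10 had an adjusted p below 0.05, and none did among all tested genes by the same test. Limma-voom likewise gave 1 of the 7 genes an unadjusted p below 0.05 and DESeq2's Wald test gave 0. Over all 14568 genes, limma-voom gave 145 and DESeq2 gave 96 an unadjusted p below 0.05. Neither gave any gene of the table an adjusted p below 0.05. With the replicate number as a block, edgeR gave 1 gene of the table, none of the 10, an adjusted p below 0.05. In bulk tissue, a change in the number of cells of a type and a change in RNA per cell cannot be told apart.

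**Figure D1:**
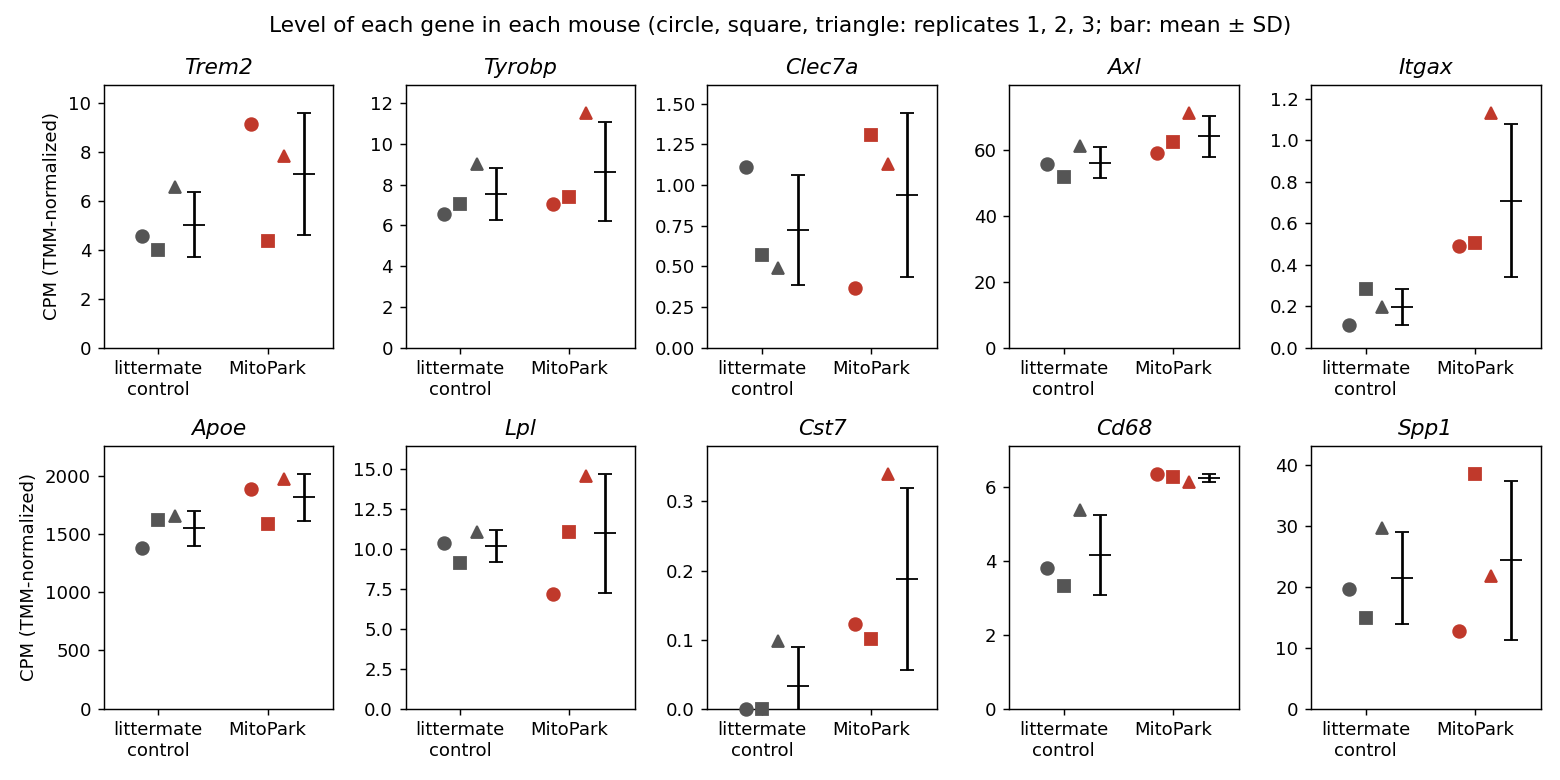
TMM-normalized CPM (vertical axes, from 0, with a scale of their own in each panel) of the 10 genes in 3 littermate controls (grey) and 3 MitoParks (red), where circles, squares and triangles are replicates 1, 2 and 3 and bars are mean ± SD. Cd68, Itgax and Cst7 do not overlap between the groups, and Itgax and Cst7 are near the limit of detection. Of all genes with a count, 2.7% had every MitoPark above every control. The MitoPark points of Cd68 lie between 6.12 and 6.34 CPM.

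Cd68 encodes macrosialin, a glycoprotein of the lysosomes of macrophages that is widely used as a sign of phagocytic activity. Littermate controls 1, 2 and 3 were at 3.79, 3.32 and 5.38 CPM, and MitoParks 1, 2 and 3 were at 6.34, 6.27 and 6.12 CPM. Every MitoPark was above every littermate control, as was the case for 2.43% of all tested genes. The mean was 4.16 ± 1.08 CPM in control mice (SD, n = 3) against 6.24 ± 0.11 CPM in the MitoPark mice (SD, n = 3). The log2 fold change was 0.582 (SE 0.24), just under the 1.5-fold cutoff, with unadjusted p = 0.0367 and Benjamini-Hochberg adjusted p = 0.999 by the edgeR QL test. An exact two-sided permutation test gave p = 0.1, the smallest that 3 mice against 3 allow. These levels rest on 34, 35 and 55 counts in the controls and on 52, 62 and 54 counts in the MitoParks. Littermate control 3, at 55 counts, was thus above MitoParks 1 and 3 before scaling to library size. The gap between its 5.38 CPM and the 6.12 CPM of MitoPark 3 is no wider than counting error. Counting alone gives a coefficient of variation of 13.4% at the MitoPark depth, and the 3 MitoParks varied by 1.76%, so their close spacing is finer than the counts can resolve. Cd68 passed both cutoffs without littermate control 3, at a log2 fold change of 0.81. With any other mouse left out its unadjusted p lay above 0.05, between 0.0597 and 0.125 by the edgeR QL test, at 0.44 to 0.60, and DESeq2's Wald test over all mice gave 0.0688.

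Itgax and Cst7 belong to the later, TREM2-dependent step of the program, and both were near the limit of detection. Itgax encodes integrin alpha X, or CD11c, which marks dendritic cells and activated microglia. It had 1.49, 3.33 and 2.01 expected counts in control mice 1, 2 and 3, and 4, 5 and 10 in MitoParks 1, 2 and 3. Each MitoPark had more than each control, and the highest was MitoPark 3, at 1.13 CPM. Summed over mice, 6 rounded counts in controls stood against 19 in MitoParks, a ratio of 3.5 after normalization with an exact 95% counting interval of 1.34 to 10.7. The interval covers counting error only. The fractions of a count show that RSEM divided reads between Itgax and other transcripts, as it did for Lpl and Axl. Without the filter on low counts, Itgax had an unadjusted p of 0.0297 and, after adjustment, 1.0 by the edgeR QL test. In that fit over 19235 genes it was the only one of the 10 past the study's cutoffs, where 0.556% of the genes passed them as higher in MitoParks.

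Cst7 encodes cystatin F, an inhibitor of lysosomal cathepsins. It had 0, 0 and 1 counts in control mice and 1, 1 and 3 counts in MitoParks. Both groups were at or below 3 counts in every mouse, so no fold change is given, and the difference of 1 against 5 counts in all was not resolvable at this depth. The groups of Cst7 did not overlap in CPM, as 1 count equals 0.0977 CPM in littermate control 3 and 0.101 CPM in MitoPark 2. Of the 19285 genes with any count, 2.7% had every MitoPark above every control, and 3 of the 10 genes did. Among the 7 tested genes 1 did, Cd68, and the other 2 are Itgax and Cst7, near the limit of detection.

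Clec7a, which encodes the beta-glucan receptor Dectin-1, did not share this pattern. It had 10, 6 and 5 counts in control mice 1, 2 and 3, and 3, 13 and 10 in MitoParks 1, 2 and 3. MitoPark 1 was thus the lowest of all 6 mice, at 0.366 CPM, and MitoPark 2 the highest, at 1.31 CPM. Without the filter its log2 fold change was 0.41 (SE 0.58, unadjusted p = 0.494 by the edgeR QL test).

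The promoters of these genes show which known regulatory letters lie close to the genes at issue. RefSeq promoters of build GRCm38.p6 were found for 8 of the 10 genes, all but Tyrobp and Lpl, and the 250 bases before each gene start were searched. The deposited counts carry no coordinates, so the genes were matched by symbol. Microglial genes are commonly controlled by PU.1, an ETS factor that binds GGAAGT-like sites, and by AP-1 factors, which bind TGANTCA. The sequences are shown for the 3 genes whose groups did not overlap and for Trem2, with GGAAGT (or ACTTCC, its other strand) and TGANTCA in capitals.
Cd68: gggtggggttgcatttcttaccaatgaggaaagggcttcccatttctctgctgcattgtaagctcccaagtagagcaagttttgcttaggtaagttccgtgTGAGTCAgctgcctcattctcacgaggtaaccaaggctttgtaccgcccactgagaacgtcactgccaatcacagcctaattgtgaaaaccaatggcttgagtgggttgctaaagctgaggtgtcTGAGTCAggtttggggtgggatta
Itgax: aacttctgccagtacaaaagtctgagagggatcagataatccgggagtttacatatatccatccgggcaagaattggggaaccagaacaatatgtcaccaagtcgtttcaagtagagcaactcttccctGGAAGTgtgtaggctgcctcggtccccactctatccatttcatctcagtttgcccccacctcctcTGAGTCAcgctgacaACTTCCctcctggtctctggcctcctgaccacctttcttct
Cst7: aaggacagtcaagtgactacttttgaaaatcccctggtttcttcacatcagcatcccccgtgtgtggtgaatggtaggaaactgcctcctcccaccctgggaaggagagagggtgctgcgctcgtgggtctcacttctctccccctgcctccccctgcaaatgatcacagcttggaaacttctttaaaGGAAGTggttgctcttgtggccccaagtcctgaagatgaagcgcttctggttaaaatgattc
Trem2: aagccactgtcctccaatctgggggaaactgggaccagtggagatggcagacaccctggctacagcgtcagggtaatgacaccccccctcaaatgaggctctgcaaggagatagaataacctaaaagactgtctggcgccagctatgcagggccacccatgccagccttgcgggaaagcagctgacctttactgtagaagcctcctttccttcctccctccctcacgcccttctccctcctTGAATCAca

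The Cd68 stretch is chr11:69666171-69666420 on the minus strand, and it holds TGANTCA at 149 and 24 bases before the gene start, counted from the motif's first base. The Itgax stretch, chr7:128129300-128129549 on the plus strand, holds GGAAGT or its other strand at 121 and 41 bases and TGANTCA at 56 bases before the start. For Cst7, chr2:150570165-150570414 on the plus strand, there is a GGAAGT at 62 bases before the start. Trem2 lies at chr17:48346151-48346400 on the plus strand, with TGANTCA at 9 bases before the start. The 8 genes have 12 promoter entries, since some have several starts. GGAAGT was in 3 of the 12 entries, 1 each of Cst7, Itgax and Spp1, and in 19.7% of 32851 promoters of that length. TGANTCA was in 3 of the 12 entries and in 6.75% of promoters. The longer PU.1 motif GAGGAAGT was in 1 entry of Spp1, where it contains the GGAAGT, and in 2.44% of promoters. CACGTG, the E-box of the lysosomal MITF and TFE factors, was in none of the 12 entries and in 6.02% of promoters. A match is a run of letters and does not show binding.

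Trem2 and Tyrobp, the receptor and its adaptor, differed less clearly between the groups. Trem2 was at 4.57, 3.99 and 6.55 CPM in control mice 1, 2 and 3, and at 9.14, 4.35 and 7.82 CPM in MitoPark mice 1, 2 and 3. MitoParks 1 and 3 were above every control, but MitoPark 2 lay within the control range. The log2 fold change of Trem2 was 0.49 (SE 0.31), with unadjusted p = 0.151 and Benjamini-Hochberg adjusted p = 0.999 by the edgeR QL test. This value turned on single mice. Without MitoPark 2 it was 0.76 (unadjusted p = 0.0248 from the same edgeR test), and without littermate control 3 it was 0.73 (unadjusted p = 0.0495 from the same edgeR test), so that Trem2 passed both cutoffs in each of these fits. In the fit without MitoPark 2, 1.04% of all tested genes passed as higher in MitoParks, and in the fit without littermate control 3, where Trem2 and Cd68 both passed, 0.972% did.

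Tyrobp stood at 6.57, 7.03 and 8.99 CPM in the control mice and at 7.07, 7.38 and 11.5 CPM in the MitoParks. Only MitoPark 3 exceeded the highest control. Its log2 fold change was 0.20 (SE 0.24, unadjusted p = 0.437 by the edgeR QL test) and ranged with single mice left out from -0.06 (without MitoPark 3) to 0.34 (without littermate control 3). The highest mouse for Tyrobp, MitoPark 3, was not the highest for Trem2, which was MitoPark 1.

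The other signalling genes of this receptor showed no common direction. Of 14 genes listed for the path from TYROBP through the kinase SYK and for shedding of TREM2, 13 were tested, 7 were higher and 6 lower, with a median log2 fold change of 0.0. None passed the cutoffs. Malt1, a paracaspase downstream of SYK and CARD9, had the only unadjusted p below 0.05. It was at 10.3 ± 1.87 CPM in control mice (SD, n = 3) against 15.2 ± 3.85 CPM in the MitoPark mice (SD, n = 3), with overlapping groups and log2 fold change 0.56 (unadjusted p = 0.0336, edgeR QL test). Malt1 passed both cutoffs without littermate control 1 (0.62), littermate control 3 (0.66) or MitoPark 2 (0.75), and its p rose above 0.05 without littermate control 2 (0.41), MitoPark 1 (0.53) or MitoPark 3 (0.38). Syk itself was at 4.34 CPM in controls and 4.29 CPM in MitoParks.

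Apoe and Axl were abundant and were measured with little counting error. Apoe encodes apolipoprotein E, the main lipid carrier of the brain and a ligand of TREM2. It was at 1378.3, 1617.8 and 1652.3 CPM in control mice 1, 2 and 3, and at 1889.0, 1586.1 and 1972.0 CPM in MitoPark mice 1, 2 and 3. MitoParks 1 and 3 were above every control and MitoPark 2 was not, the same split of mice as for Trem2. The log2 fold change was 0.23 (SE 0.14, unadjusted p = 0.131 by the edgeR QL test). Counting alone gives a coefficient of variation of 0.805% in controls, where the mice differed by 9.63%, a spread far above counting error. The summed level of 9 astrocyte markers overlapped between the groups, at 4133.1 to 4709.5 CPM in controls and 4341.1 to 4881.5 CPM in MitoParks, and their part in the Apoe level was not tested.

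Axl encodes a receptor kinase that binds phosphatidylserine on dying cells through the bridging protein GAS6. Its levels were 55.7, 51.6 and 61.0 CPM in control mice and 59.0, 62.3 and 71.1 CPM in MitoParks. MitoPark 1 lay below littermate control 3, and the other MitoParks lay above all controls. The log2 fold change was 0.19 (SE 0.12, unadjusted p = 0.139 by the edgeR QL test) and ranged from 0.11 to 0.26 with each mouse left out in turn.

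Lpl and Spp1 varied more among MitoParks than between the groups. Lpl encodes lipoprotein lipase, which releases fatty acids from lipoproteins. It was at 10.4, 9.12 and 11.1 CPM in control mice and at 7.19, 11.1 and 14.6 CPM in MitoParks, so that the MitoParks held both the lowest and the highest mouse. The log2 fold change was 0.11 (SE 0.24, unadjusted p = 0.668 by the edgeR QL test). Spp1 encodes osteopontin, a secreted phosphoprotein. Littermate controls 1, 2 and 3 had 19.6, 14.9 and 29.7 CPM of it, and MitoParks 1, 2 and 3 had 12.8, 38.5 and 21.7 CPM. The log2 fold change of Spp1 was 0.19 (SE 0.37, unadjusted p = 0.614 by the edgeR QL test) and it ranged from -0.30 without MitoPark 2 to 0.51 without littermate control 3. For both genes MitoPark 1 was the lowest of the 6 mice, as it was for Clec7a, while the same mouse was the highest for Trem2.

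**Figure D2:**
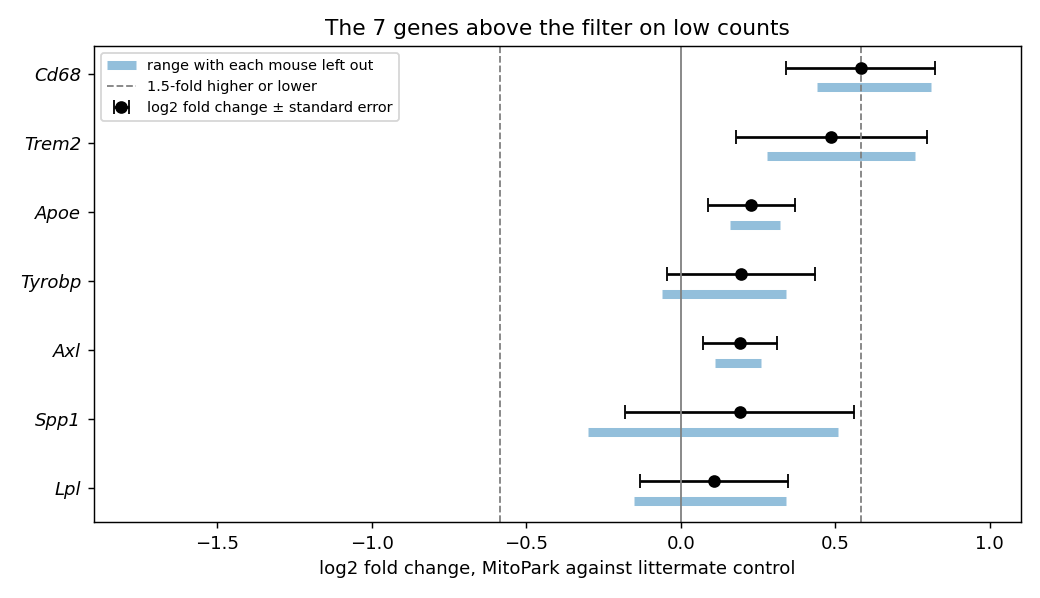
Log2 fold change of MitoParks against littermate controls (horizontal axis) for the 7 tested genes, as points with bars of 1 standard error from edgeR, and the range of the value with each of the 6 mice left out in turn as blue bands. Dashed lines mark a 1.5-fold difference, which Cd68 at 0.582 nearly reaches, and the bands of Tyrobp, Spp1 and Lpl cross 0.

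The 10 genes did not move as a block across mice. MitoPark 3 was the highest mouse for 6 of them, MitoPark 1 for 2 and MitoPark 2 for 2, and no littermate control was the highest for any. How many of all genes had a MitoPark as the highest mouse was not counted. MitoPark 1 was also the lowest mouse for 3 of the 10. The 2 of MitoPark 1 include Cd68, where the order of the MitoParks is finer than the counts can resolve. Littermate control 1 was the lowest mouse for 4 genes, counting Cst7, where it shared 0 counts with littermate control 2. The median deviation of the 7 tested genes from their means over all mice was -0.27, -0.21 and 0.10 on the log2 scale in littermate controls 1, 2 and 3, where MitoParks 1, 2 and 3 had -0.02, 0.06 and 0.27. Littermate control 3 was thus above MitoParks 1 and 2 by this measure. With littermate control 3 left out the median log2 fold change of the 7 genes was 0.34.

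Levels of different genes were compared per kilobase of transcript, with lengths from GENCODE M21. The longest transcript of Trem2 is a form of 4784 bases with a retained intron, so the longest protein-coding transcript was used for the order, a choice made after the data were seen that changed the length of Trem2 alone, to 1088 bases. Apoe led with 1100.5 ± 106.0 CPM per kb in control mice (SD, n = 3), 77.5 times the next gene. Spp1, Axl and Tyrobp followed at 14.2, 13.1 and 12.6 CPM per kb, and neighbours among these 3 overlapped between mice. Trem2 at 4.63, Cd68 at 3.38 and Lpl at 2.48 CPM per kb formed the next step, where each again overlapped its neighbour in the controls. Clec7a, Itgax and Cst7 were at 0.318, 0.0488 and 0.033 CPM per kb. In MitoParks the order was the same down to Clec7a, with Trem2 at 6.53 and Cd68 at 5.08 CPM per kb and no overlap of Cd68 with Lpl, and Itgax and Cst7 were at 0.175 and 0.19 CPM per kb with overlapping mice.

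**Figure D3:**
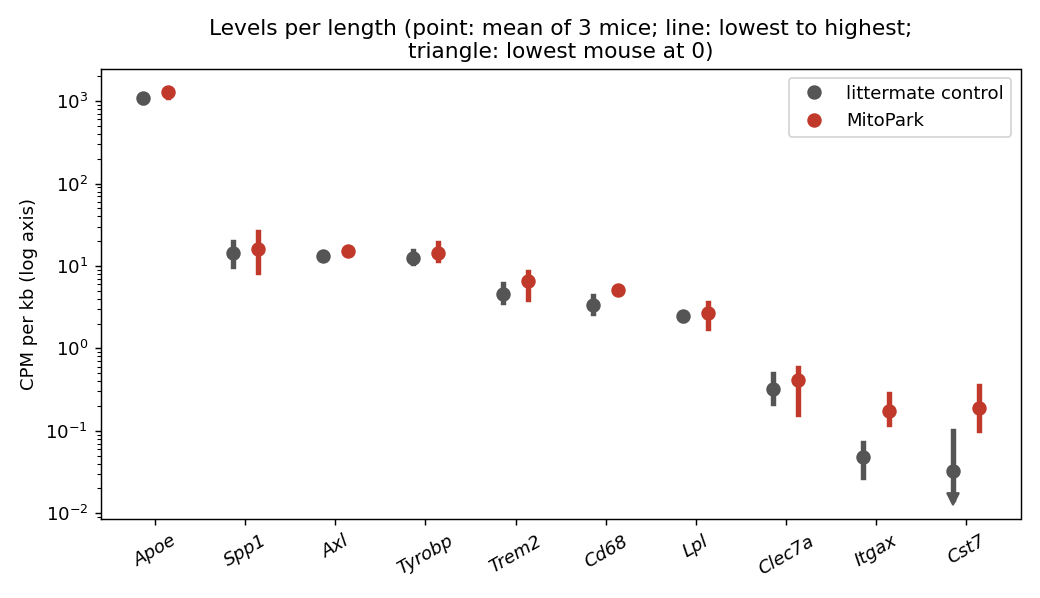
CPM per kilobase of the longest protein-coding transcript (log axis) for the 10 genes, in littermate controls (grey) and MitoParks (red), as means of 3 mice with lines from the lowest to the highest mouse. Apoe stands at 1100.5 CPM per kb in controls and 1289.6 CPM per kb in MitoParks, and Clec7a, Itgax and Cst7 lie below 1 in every mouse, with the lowest control of Cst7 at 0.

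Other genes of the disease-associated state gave no count past the cutoffs. Of 26 further genes, 20 were tested, 12 were higher and 8 lower in MitoParks, at a median log2 fold change of 0.02. The smallest p belonged to B2m, the light chain of MHC class I, at 81.8 ± 13.5 CPM in control mice (SD, n = 3) against 99.0 ± 19.4 CPM in the MitoPark mice (SD, n = 3), unadjusted p = 0.136 by the edgeR QL test. The cathepsin genes Ctsb, Ctsd and Ctsl, which encode lysosomal proteases, had log2 fold changes of -0.06, 0.04 and 0.0. Gpnmb, a glycoprotein gene of lipid-laden phagocytes, was at 1.55 CPM in controls and 1.8 CPM in MitoParks, and Lgals3, which encodes galectin-3, had a mean below 1 CPM in both groups.

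Resting microglia genes were detected in all mice and did not fall as a group. Of 16 such genes, all were tested, 14 were higher and 2 lower in MitoParks, with a median log2 fold change of 0.16 (0.33 without littermate control 3). Their summed level was 376.0, 451.0 and 520.7 CPM in control mice and 483.8, 482.8 and 535.2 CPM in MitoParks, so the groups overlapped. Every MitoPark was above every control for 3 of the 16 genes, which were C1qa, Aif1 and Siglech, against 2.43% of all tested genes. The gene C1qa, a chain of complement C1q that microglia make, was at 29.8 ± 2.61 CPM in controls (SD, n = 3) against 37.7 ± 4.65 CPM in the MitoPark mice (SD, n = 3) (log2 fold change 0.34, unadjusted p = 0.031 by the edgeR QL test). Aif1 and Siglech had unadjusted p = 0.0752 and unadjusted p = 0.101 by the same test. Fcrls, an Fc receptor-like gene of resting microglia, was the only one of the list past the cutoffs and was lower, at 6.79 ± 4.49 CPM in controls (SD, n = 3) against 3.0 ± 0.783 CPM in the MitoPark mice (SD, n = 3). Its groups overlapped (log2 fold change -1.18, unadjusted p = 0.0438 by the edgeR QL test), and it missed the cutoffs with limma-voom, with robust dispersion, and in each fit that left out a mouse other than littermate control 1, with a range of -1.6 to -0.66. Set against the summed resting genes of the same mouse, Cd68 was at 1.01, 0.737 and 1.03 CPM per 100 CPM in control mice and at 1.31, 1.3 and 1.14 in MitoParks, which did not overlap. The closest mice, littermate control 3 and MitoPark 3, had 55 and 54 counts of Cd68, so their order is not resolved by the counts. For Trem2 the same measure was 1.21, 0.885 and 1.26 in controls and 1.89, 0.901 and 1.46 in MitoParks, which overlapped. Tyrobp, Apoe, Lpl, Clec7a, Axl and Spp1 overlapped by this measure as well. Itgax and Cst7, both near the limit of detection, did not overlap. How many of all tested genes were without overlap by this measure was not counted.

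Markers of macrophages at the borders of the brain were low, and of these Mrc1 alone passed the cutoffs. The summed level of 9 markers of border macrophages and blood monocytes was 6.68, 8.64 and 6.35 CPM in control mice and between 9.26 and 12.7 CPM in MitoParks, without overlap. Without Mrc1 the other 8 markers summed to 3.91 to 6.17 CPM in control mice and to 5.61 to 8.5 CPM in MitoParks (a sum added after the data were seen). These overlapped, as MitoPark 1 at 5.61 CPM lay below littermate control 2 at 6.17 CPM. Cbr2, with a mean below 1 CPM in both groups, also had every MitoPark above every control, as had 2.7% of the genes with any count. It was at 0.0977 to 0.57 CPM in controls and 0.708 to 1.36 CPM in MitoParks. Of the 9 markers 3 were tested, with a median log2 fold change of 0.38 (0.26 without littermate control 3). Cd163 and Lyve1 overlapped between the groups, at unadjusted p = 0.24 and unadjusted p = 0.554 by the edgeR QL test. Mrc1, the mannose receptor of perivascular macrophages, rose from 2.31 ± 0.261 CPM in controls (SD, n = 3) to 4.17 ± 0.497 CPM in the MitoPark mice (SD, n = 3), without overlap. Its log2 fold change was 0.85 (SE 0.25), with unadjusted p = 0.00817 and Benjamini-Hochberg adjusted p = 0.999 by the edgeR QL test. Macrophages of this kind also express Cd68, Trem2 and Tyrobp, and their part in the level of these genes was not tested. The monocyte markers Ccr2, Ly6c2 and Plac8 stayed below 1 CPM in both groups.

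Lists for other cells were compared in the same way. No gene passed the cutoffs among 4 tested markers of neutrophils and red cells, 9 of astrocytes, 7 of oligodendrocytes, 6 of neurons, 6 of endothelium and pericytes, and 5 of choroid plexus and meninges, with median log2 fold changes of 0.12, 0.09, 0.02, -0.14, -0.07 and -0.06. Without littermate control 3 the oligodendrocyte median was 0.49. Genes with the smallest p in these lists were Hba-a1, Gfap, Mbp, Stmn2, Cldn5 and Ttr, with unadjusted p-values of 0.139, 0.0548, 0.707, 0.212, 0.155 and 0.137 by the edgeR QL test. With single mice left out some of them passed both cutoffs, which were Gfap (1.09), Mbp (0.63) and Ttr (-2.49) without littermate control 3, Gfap (0.93) without MitoPark 1 and Hba-a1 (0.62) without littermate control 2. Gfap, the intermediate filament gene of astrocytes, also passed with total counts, without the filter, with limma-voom and with the replicate block, at 0.70 to 0.72. All 8 dopamine neuron markers were lower in MitoParks with every mouse included, with a median of -0.69. Without littermate control 3 the median was -0.07, and 3 of the 7 that could then be fitted turned higher, which were Th (0.07), Aldh1a1 (0.27) and En1 (0.60). One of the 8, the dopamine transporter gene Slc6a3, passed the cutoffs, though not with robust dispersion. Its log2 fold change was -2.3 (unadjusted p = 0.00895 in the edgeR fit of all mice), and -0.97 without littermate control 3. Slc6a3 is also the Cre driver, altered by design in the MitoParks and intact in the controls. For this gene, the altered locus and a loss of dopamine neurons cannot be told apart, and the part of each was not tested. The neutrophil markers S100a8, S100a9, Ngp, Camp and Ltf were at 0.668 CPM or less in every mouse.

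**Figure D4:**
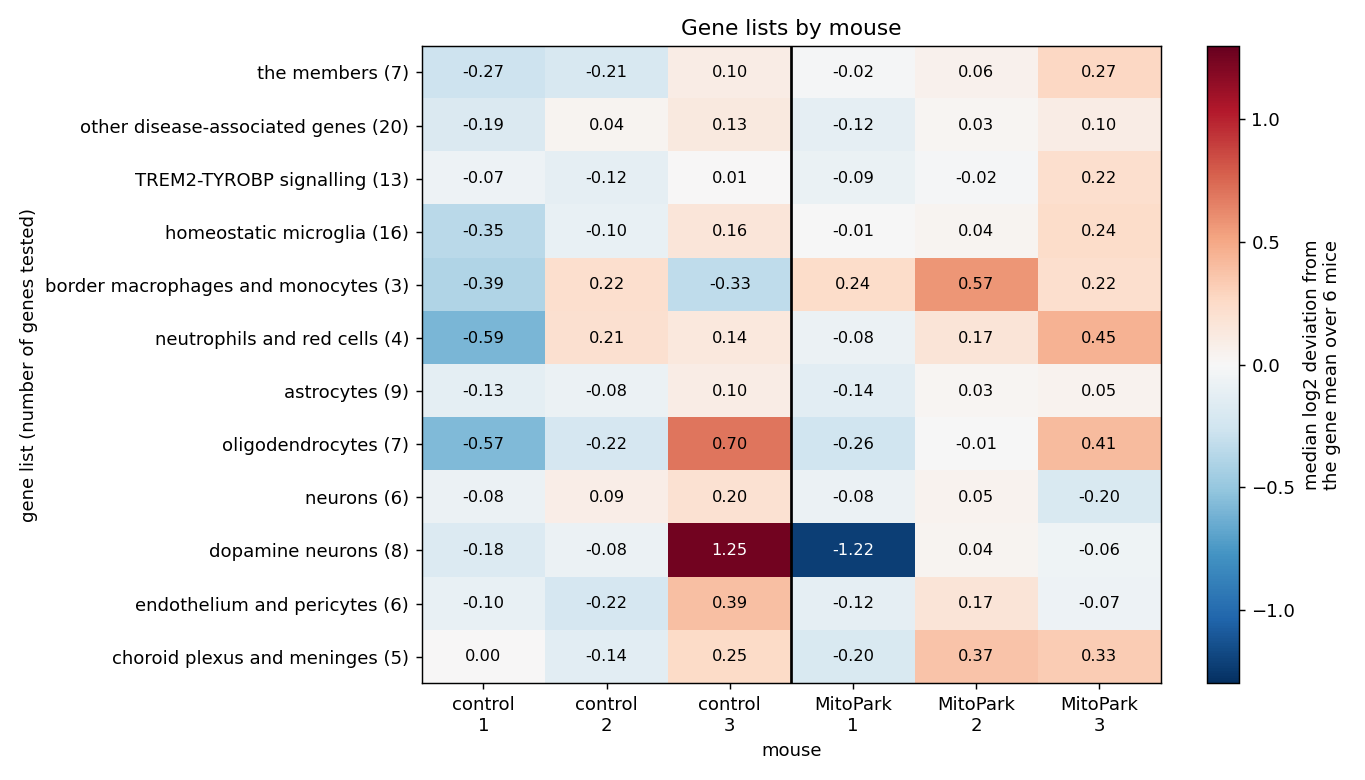
Median deviation of each gene list (rows, with the number of tested genes) in each mouse (columns) from the gene means over the 6 mice, in log2(CPM + 0.1), where red is above and blue below the mean. Dopamine neuron markers reach 1.25 in littermate control 3 and -1.22 in MitoPark 1, while the 7 tested genes of the disease-associated state lie between -0.27 and 0.27.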

How the data were processed

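RNA of the SN of 3 MitoParks and 3 littermate controls was measured, grouped by the sample labels. The authors mapped reads to UCSC transcripts with Bowtie2 2.1.0, estimated gene levels with RSEM 1.2.15, and deposited the expected counts without normalization. The submitters' processing notes name hg38, a human build, while the symbols are those of the mouse, so the build of the counts is taken as not given in the sources used here. Columns of the table that belong to no sample number 0. Columns named Treat were matched to the PD samples.

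For this report the expected counts were rounded. The filter kept genes whose mean CPM exceeded 1 in either group. After TMM scaling, all kept genes entered the quasi-likelihood (QL) test of edgeR 4.0.16 (R 4.3.3), with group as the only term. The study's cutoffs were used (p under 0.05 without adjustment, fold change over 1.5), and Benjamini-Hochberg adjustment ran over all tested genes. These are the cutoffs that the study names with edgeR. Another section of its methods names an adjusted p below 0.05 from a t-test. Levels are TMM-normalized CPM, and exact permutation tests used log2(CPM + 0.1). Every pair within a group differed by more than counting noise (smallest chi-square over its degrees of freedom 9.68), and each mouse counts as 1 replicate. The p-values of the edgeR QL test set the difference between groups against a spread between mice that is estimated partly from all tested genes.

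The 10 genes and the gene lists were chosen with earlier results of these data known. Tfam and list genes with an unadjusted p below 0.05 were named besides the 10. Where a list had none, the gene with the smallest p was named. Also named were 5 genes with a pattern like that of Trem2. A few list members were named for their role, or for groups that did not overlap, after their values were seen. Alternatives were RLE and total count scaling, no filter, filterByExpr, DESeq2 1.42.0, limma-voom (limma 3.58.1), robust dispersion, unrounded counts, a block for the replicate number, an adjusted p below 0.05, and each mouse left out. Python 3.11.15, scipy 1.17.1, pandas 2.3.3 and matplotlib 3.10.9 were also used. Protein sequences were not used here.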

Additional observations from a re-analysis of the deposited data

How the results depend on the processing

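The 7 tested genes kept a positive median log2 fold change, between 0.15 and 0.34, under every alternative run, and no gene of the 10 was lower past the cutoffs in any of them. Their direction was unchanged in 101 of 105 refits of single genes. The exceptions were Lpl at -0.15 and Tyrobp at -0.06 without MitoPark 3, and Spp1 at -0.01 without littermate control 2 and -0.30 without MitoPark 2, and Spp1 reached 0.51 without littermate control 3. None of the 7 passed the cutoffs in the main fit. Cd68 alone passed after scaling to library totals, by limma-voom and with the replicate number as a block, at 0.60, 0.61 and 0.60. With each mouse left out, 0 to 2 passed. Without the filter all 10 genes were among the 19235 fitted, and Itgax, which is not one of the 7, was the only one to pass. Over all tested genes 84 passed the cutoffs in the main fit. Scaling to library totals gave 85, limma-voom 70 and the replicate block 126. The count was 176 without the filter, 0 at an adjusted p below 0.05, and 62 to 219 with each mouse left out. Among genes named from the other lists, Mbp ranged from -0.16 (without littermate control 1) to 0.63, with -0.07 without MitoPark 3, and Ttr from -2.79 to 1.16 (without littermate control 2). Per kilobase of its longest transcript Trem2 was at 1.05 CPM in controls, and at 4.63 CPM with the longest protein-coding one.

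Both groups share replicate numbers, with no stated litter or batch behind them. As none is stated, the numbers were not taken as pairs in the main fit. Deviations of same-numbered mice correlated at 0.307, -0.0738 and 0.244, which cannot decide whether such mice shared a batch. Summed oligodendrocyte markers rose with the number in both groups. They were at 6996.6, 9843.8 and 18483.9 CPM in control mice and at 9575.1, 12415.4 and 15630.5 CPM in MitoParks. A shared batch or order of dissection was not tested. The replicate block gave 1 of the 7 genes, Cd68, past the cutoffs, where its p was 0.0312 by the edgeR QL test. Over all genes it gave 126 past the cutoffs, 323 with an unadjusted p below 0.05 and 1 with an adjusted p below 0.05. The main fit gave 84, 161 and 0. Cst7, at 3 counts or fewer in every mouse, could not be resolved at this depth.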

Other observations

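Over the 6 mice, the 5 tested genes whose log2(CPM + 0.1) followed Trem2 most closely were Dennd4b, Pon3, Smad6, Dhx35 and Aloxe3. Dennd4b had a Pearson's r of 0.988 and a Spearman's rho of 0.943 with Trem2 over 6 mice of both groups, and it was at 45.5, 45.2 and 48.2 CPM in control mice and 52.2, 45.1 and 50.0 CPM in MitoParks. Its highest mouse was MitoPark 1, as for Trem2. These genes were the closest of all tested genes by construction, so no p is given.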
